A study of Homo sapiens with 2 samples.

Results

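The genes described here encode the machinery that copies DNA and supplies its nucleotides. They were 41 genes given by symbol, and their probes were those that the platform annotation assigns to a listed gene alone: 61 of the 30113 probes with 1 gene symbol, for 41 of 20046 named genes. Both arrays measured THP-1 cells, a line derived from human acute monocytic leukaemia. In shLY6E the cells stably expressed a short hairpin RNA (shRNA) that targets LY6E for RNA interference, and in shCtrl a scrambled shRNA. Both lines were kept in medium with puromycin, each group had 1 array of total RNA (n = 1), and the labels do not say whether a line is 1 clone or a pool. LY6E itself, an interferon-inducible surface protein, had a deposited intensity of 253 in shLY6E and 1049 in shCtrl, or 27.2% of the control after normalization.

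Before S phase, the origin recognition complex, CDC6 and CDT1 load the MCM2 to MCM7 helicase onto origins, a step called licensing, and geminin (GMNN) blocks CDT1 afterwards. CDC45 and the GINS complex then turn the loaded helicase into an active one, with MCM10 needed for firing. Polymerase alpha with primase starts each strand, the RFC clamp loader sets the PCNA ring on DNA, and polymerases delta and epsilon extend. FEN1 and LIG1 trim and join the lagging-strand pieces, RPA covers single strands, CAF-1 rebuilds nucleosomes, and ribonucleotide reductase, thymidylate synthase and thymidine kinase supply nucleotides. Many of these genes are known targets of E2F transcription factors, which cyclin E with CDK2 helps to release from the retinoblastoma protein.

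The promoters are shown first because E2F control is what these genes are best known to share, and the choice of genes did not use their promoters. RefSeq promoter sequences of GRCh38.p14, from 250 bases before to 50 bases after each annotated transcript start, were at hand for 36 of the 41 genes. They were searched on both strands for 4 E2F words, TTTCCCGC, TTTCGCGC, TTTGCCGC and TTTGGCGC. Of the 36 genes, 19 (52.8%) held at least 1 word, against 1090 of all 27305 genes (3.99%) with a promoter sequence, on the array or not. Each window had the same length. A gene counted if the window of any annotated start held a word, and genes differ in their number of starts. In the following stretches, each ending before the transcript start and written 5′ to 3′ on the gene's strand, capitals mark the E2F words on either strand.
CDT1, chr16:88803719-88803788, plus strand: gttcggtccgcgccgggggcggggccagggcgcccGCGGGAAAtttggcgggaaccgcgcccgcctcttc
MCM7, chr7:100101398-100101592, minus strand: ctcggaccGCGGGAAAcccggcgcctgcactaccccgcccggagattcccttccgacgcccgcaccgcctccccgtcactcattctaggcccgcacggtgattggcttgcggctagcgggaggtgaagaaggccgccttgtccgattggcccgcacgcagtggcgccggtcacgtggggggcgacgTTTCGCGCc
MCM3, chr6:52284873-52284922, minus strand: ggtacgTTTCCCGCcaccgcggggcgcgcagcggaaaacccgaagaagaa
MCM6, chr2:135876514-135876603, minus strand: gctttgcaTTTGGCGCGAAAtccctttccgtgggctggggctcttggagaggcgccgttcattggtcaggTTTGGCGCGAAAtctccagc
E2F1, chr20:33686386-33686445, minus strand: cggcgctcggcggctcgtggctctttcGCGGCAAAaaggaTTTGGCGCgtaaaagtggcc
TYMS, chr18:657583-657652, plus strand: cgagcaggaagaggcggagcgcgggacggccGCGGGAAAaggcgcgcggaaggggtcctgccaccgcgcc

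The stretches of CDT1 and MCM7 are shown because these genes were among the lowest in shLY6E, that of MCM3 because both of its probes were lower, and those of MCM6, E2F1 and TYMS because their normalized values on the arrays were nearly equal. MCM6 carries 4 words that overlap in pairs, each run of 12 capitals holding 1 word on either strand. In all, the 19 genes held 27 words, overlapping words counted separately, and 23 of these began before an annotated start, 16 of them within 100 bases of it. By step, among genes with a promoter, a word was found in 7 of 9 licensing genes and 4 of 6 polymerase and primase genes. It was found in 2 of 5 clamp and clamp loader genes, 1 of 4 nucleotide synthesis genes and 2 of 4 origin firing genes. For entry into S phase it was 1 of 2. For flap processing, ligation and single-strand binding it was 1 of 3, and for chromatin assembly and maintenance 1 of 3. A match is a match of letters and not a measured binding site.

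**Figure D1:**
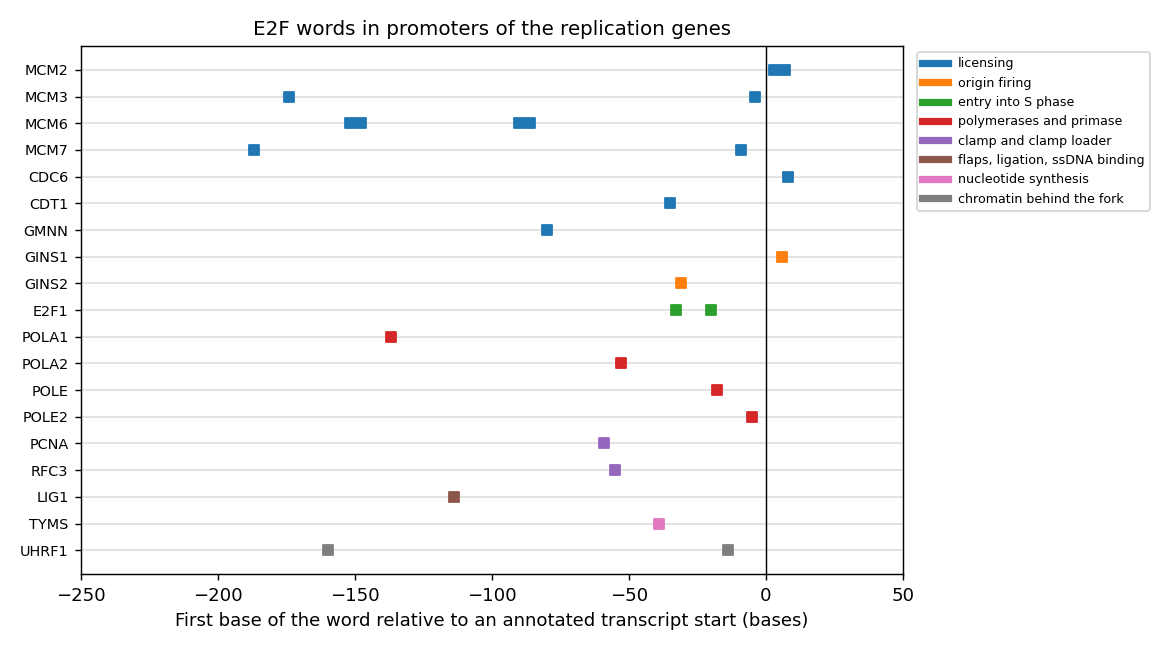
Positions of E2F words in the promoters of the 19 genes that hold one, as the distance in bases of the word's first base from an annotated transcript start (vertical line), coloured by step; genes with several annotated starts are drawn on 1 line. Most words lie before the start, 16 of 27 within the 100 bases before it, and MCM6 has 2 overlapping pairs.

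The 2 genes with the largest differences in opposite directions, MCM10 and RRM2, had none of the 4 words in these windows. Both carried CCAAT boxes, in capitals below, a motif that the factor NF-Y is known to bind.
RRM2, chr2:10122609-10122688, plus strand: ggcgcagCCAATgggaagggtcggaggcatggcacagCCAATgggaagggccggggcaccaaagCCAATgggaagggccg
MCM10, chr10:13161433-13161492, plus strand: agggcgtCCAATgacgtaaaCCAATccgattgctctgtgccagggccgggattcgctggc
The letters CCAAT, on either strand, were found for 23 of the 36 genes (63.9%) and for 39.7% of the 27305 genes. The genes with an E2F word and a detected probe (18) had a median difference (shLY6E minus shCtrl, log2) of -0.11 and those without (17) -0.17, the ranges being -0.82 to 0.44 and -1.35 to 0.81.

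The arrays were of similar depth: 34.6% of 47321 probes were detected in shLY6E and 34.4% in shCtrl, at a detection p-value under 0.01. The shCtrl array was brighter, by a median of 1.34-fold over 14966 probes detected on both arrays, so deposited intensities are given with differences after background correction and quantile normalization. All differences are of normalized log2 intensities, with shCtrl subtracted from shLY6E. With 1 array per group no difference has a test or a replicate error. The spread at hand is that between probes of 1 gene, with a within-gene SD of 0.28 over 2254 genes. No such SD was computed for the members. By another measure, the median range between probes, the spread was 0.455 for 13 members and 0.25 for the 2254 genes. A range also depends on the number of probes per gene. Of the monocytic markers, 9 of 9 with a probe were detected on both arrays, at 154 to 5676 in shLY6E and 180 to 8838 in shCtrl. Of 13 markers of T, B, erythroid, epithelial and fibroblast cells with a probe, 1, CD79A, was detected, in shLY6E only and at 112, where the lowest detected intensity was 106.

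Most replication genes were slightly lower in shLY6E. Of the 41 genes, 39 were detected on at least 1 array and 38 on both; GINS1 and CCNE2 were detected on neither, and CDC6 in shCtrl only. The median difference of the 39 was -0.15, against -0.04 for all 10565 detected genes, and 32 were below 0 and 7 above, where 54.4% of all detected genes and 53.0% of those off chromosome 10 were below 0. With both arrays scaled to the median of all probes, 38 members were below 0 and 1 above, where 83.4% of all detected genes were below 0. With the mean over probes 27 members were below 0, where 53.8% of all detected genes were. Scaling to the median of probes detected on both arrays left 29 below 0, where 48.7% were. Few differences were large. At least 1.5-fold lower were 4 genes, MCM10, CDT1, MCM7 and TK1, where the background was 9.54% of all detected genes and 7.55% off chromosome 10. At least 1.5-fold higher was 1 gene, RRM2, where the background was 6.45% and 6.64%. The share of members past 1.5-fold was thus near the background for lower genes and not above it for higher ones. At 2-fold, 1 gene was lower (MCM10) and 0 were higher, where the background was 2.52% and 2.21%. Without background correction MCM10 stood at -0.89, short of 2-fold. From RNA of a whole culture, fewer cells in S phase and less RNA per cell cannot be told apart.

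**Figure D2:**
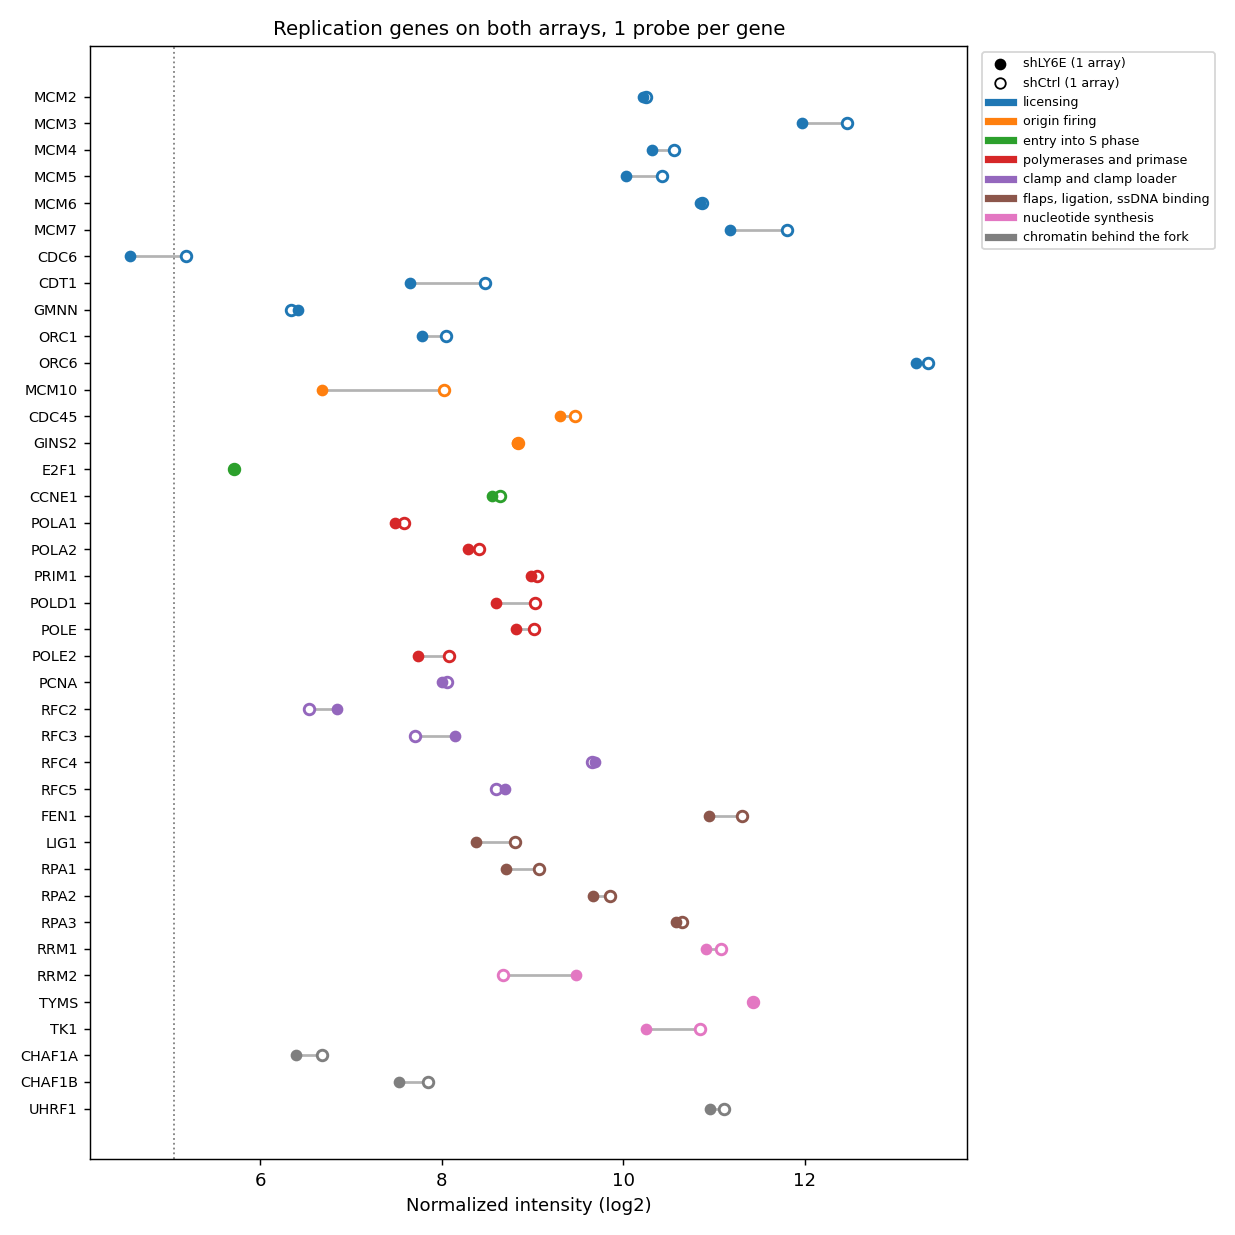
Normalized intensity (log2) of the 39 detected replication genes on the shLY6E array (filled) and the shCtrl array (open), 1 probe per gene, coloured by step; the dotted line is near the lowest detected level, 5.05 in shLY6E and 5.06 in shCtrl. The filled point lies left of the open one for 32 genes, CDC6 among them, which was not detected in shLY6E; levels of different genes come from different probes and cannot be compared.

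The 6 subunits of the MCM helicase, the ring that unwinds the template, were all below 0 by their brightest probe, with a median of -0.32. Of all detected genes, 54.4% were below 0. MCM7 was the lowest, with a deposited intensity of 2032 in shLY6E and 4228 in shCtrl, a difference of -0.63 or 1.55-fold. Next came MCM3, at 3524 and 6606 (-0.50), and MCM5, at 941 and 1763 (-0.41). MCM4, at 1124 and 1912, differed by -0.24. MCM2, at 1056 and 1576, and MCM6, at 1608 and 2335, were nearly equal after normalization (-0.03 and -0.02). The subunits, which form 1 ring with 1 copy of each, thus ran from no visible difference to 1.55-fold.

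The probes of MCM7 went opposite ways. Its brightest probe, ILMN_1663195, gave the -0.63 above. The probe ILMN_1704702 read 210 in shLY6E and 189 in shCtrl, a difference of 0.98 or 1.97-fold higher, and ILMN_1800654, at 113 and 117, was above the detection limit on the shLY6E array alone, giving a bound of at least 1.24-fold higher. The mean over the 3 probes was 0.22, so the direction of MCM7 depends on the probe read. For MCM3 and MCM4 the other probe kept the sign, at -0.21 and -0.27.

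CDT1, the loader that brings the helicase to origins, had an intensity of 242 in shLY6E and 528 in shCtrl, a difference of -0.82 or 1.77-fold lower. It was read by 1 probe and ranked 409 from the lowest of 9364 genes detected on both arrays. Its inhibitor GMNN stood at 148 and 188, a difference of 0.08, or -0.30 when both arrays were scaled to the median of all probes. CDC6, the ATPase that works with CDT1, had 96.6 in shLY6E, where it was not detected, and 132 in shCtrl, so that it was at least 1.09-fold lower.

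ORC1 and ORC6 belong to the origin recognition complex. ORC1 had 256 and 418, a difference of -0.27. ORC6 had 8717 and 11699 by its brighter probe (-0.12) and 293 and 349 by its dimmer one (0.33), so its probes differed in sign. Of the 11 licensing genes, 10 were below 0, where 54.4% of all detected genes were, and their median was -0.24. With the mean over probes, 8 were below 0, where 53.8% of all detected genes were, and their median was -0.13. At least 1.5-fold lower were 2, where the background was 9.54% of all detected genes. They were CDT1 and MCM7, the latter by its brightest probe only.

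MCM10, which is needed to fire licensed origins, had the largest difference of all 41 genes. Its brighter probe read 162 in shLY6E and 413 in shCtrl, a difference of -1.35 or 2.55-fold lower, and its other probe 129 and 228, a difference of -0.88. MCM10 is the 1 member on chromosome 10, whose genes were lower in shLY6E as a chromosome: the median of 324 genes detected on both arrays was -0.80, and 300 of them were below 0. The brighter probe lay 0.56 below that median (-0.56) and the other close to it (-0.08), and 32 of the 324 genes were lower than MCM10. Without MCM10 the median of the remaining 38 members was -0.14, with 31 below 0 and 3 at least 1.5-fold lower.

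CDC45 and GINS2, parts of the active helicase, were closer to 0. CDC45 had 594 and 947 (-0.16), and GINS2 had 446 and 653 (-0.01). GINS1, another GINS subunit, was at 95.6 and 116 and was not detected. Of the regulators of S phase entry, the transcription factor E2F1 stood at 121 and 153, a difference of 0.01. The cyclin CCNE1 had 383 and 585 by its brighter probe (-0.09), while its dimmer probe, at 111 and 128, passed detection on the shLY6E array alone, a bound of at least 1.19-fold higher. CCNE2, at 84.6 and 102, was not detected on either array.

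All 6 polymerase and primase genes were below 0, where 54.4% of all detected genes were. Their median was -0.16, and none was 1.5-fold lower. POLD1, the catalytic subunit of lagging-strand polymerase delta, was the lowest, with 391 in shLY6E and 729 in shCtrl (-0.43). The polymerase epsilon subunits POLE2 and POLE had 252 and 425 (-0.35), and 444 and 724 (-0.20). The enzymes that start strands were closer to 0. The subunits of polymerase alpha, POLA2 and POLA1, had 331 and 511 (-0.12) and 225 and 323 (-0.10), and the primase gene PRIM1 had 491 and 739 (-0.07), with -0.08 by its other probe. The other probe of POLA1 was not detected.

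The clamp loader genes RFC2, RFC3, RFC4 and RFC5 each lay above 0 by their brightest probe, though below 0 when both arrays were scaled to the median of all probes. RFC3 was the highest, with 307 in shLY6E and 345 in shCtrl (0.44), and RFC2 had 172 and 203 (0.31). RFC5 had 415 and 570 (0.10), and RFC4 had 757 and 1067 (0.03). Other probes were lower: RFC3 gave 0.12 and -0.05, RFC2 -0.18 and RFC4 -0.002, all detected on both arrays. The signs for RFC2, RFC3 and RFC4 therefore differed between probes, and the second probe of RFC5 was not detected. RFC1, a clamp loader gene outside the 41, went the other way. Its intensity was 228 in shLY6E and 364 in shCtrl (-0.285), with -0.015 by its other probe.

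PCNA, the sliding clamp, had 286 and 418 by its brightest probe (-0.05). A dimmer probe read 137 and 139, a difference of 0.77 or 1.71-fold higher, and another was not detected. Of 13 members with several probes detected on both arrays, the dimmest probe gave the higher value in 8, where this held for 56.0% of 2254 genes. In MCM7 and PCNA the probes lay at least 1.5-fold apart, as they did in 15.0% of the 2254 genes. Among the members, the RefSeq table names 18 pseudogenes for 9 genes, PCNA and RRM2 among them; whether probes also read these was not tested.

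**Figure D3:**
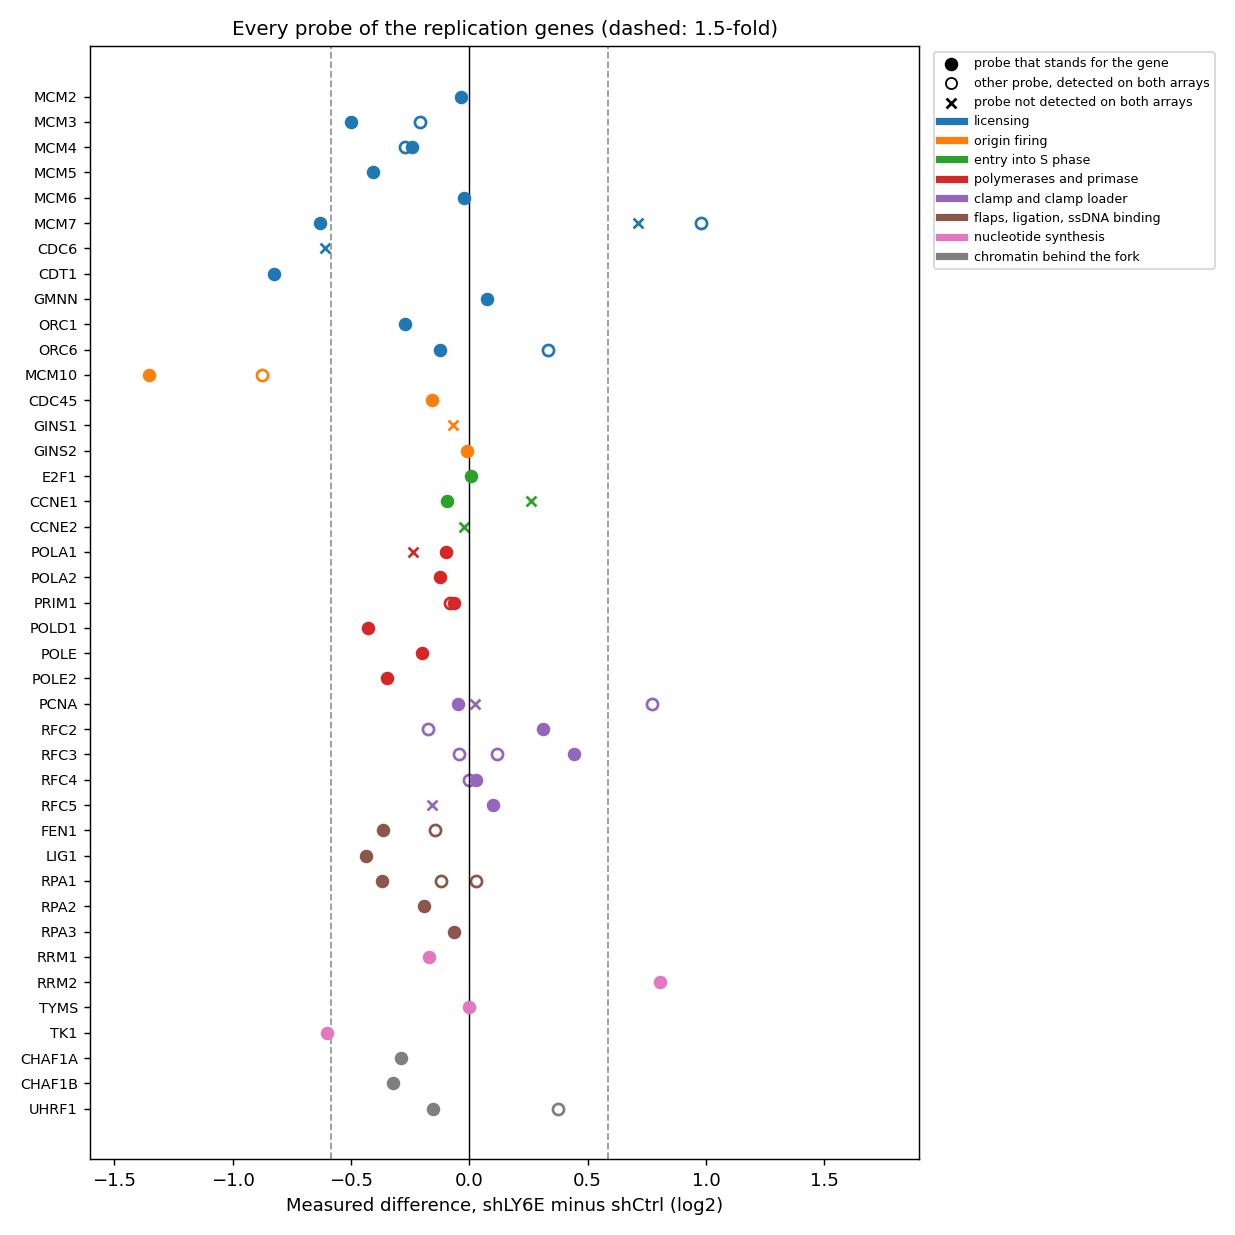
Measured difference, shLY6E minus shCtrl (log2), of each of the 61 probes of the replication genes; filled points stand for their gene, open points are other probes detected on both arrays, crosses are probes not detected on both. Dashed lines mark 1.5-fold. MCM7 spans from -0.63 to 0.98, and both probes of MCM10 lie left of the lower line.

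The genes that finish the lagging strand and cover single strands were below 0 in all 5 cases, where 54.4% of all detected genes were. Their median was -0.36, or -0.19 with the mean over probes. LIG1, the ligase that seals the fragments, had 346 in shLY6E and 643 in shCtrl (-0.44), a 1.35-fold difference. FEN1, the flap endonuclease, had 1714 and 3083 (-0.36), with -0.15 by its other probe. Of the single-strand binding complex, RPA1 had 416 and 749 (-0.37), RPA2 had 750 and 1220 (-0.19) and RPA3 had 1353 and 2032 (-0.06). The other RPA1 probes gave -0.12 and 0.03. No gene of this step reached 1.5-fold.

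Behind the fork, the CAF-1 subunit genes CHAF1A and CHAF1B had 147 and 215 (-0.29), and 229 and 374 (-0.32). UHRF1, which brings the maintenance methyltransferase DNMT1 to new DNA, had 1724 and 2727 (-0.15) by its brighter probe and 179 and 206 (0.38) by its dimmer one. The latter is another case of probes that differ in sign.

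Nucleotide synthesis held both a higher and a lower gene. RRM2, the S-phase subunit of ribonucleotide reductase, had 666 in shLY6E and 596 in shCtrl, a difference of 0.81 or 1.75-fold higher. It was 1 of 2 member probes, with a dim probe of MCM7, that were brighter in shLY6E before any normalization. Its partner RRM1 had 1674 and 2678 (-0.17), so the subunits of the enzyme lay on opposite sides of 0. TK1, the salvage kinase for thymidine, had 1073 and 2310, a difference of -0.60 or 1.52-fold lower, though at -0.57 without background correction it fell short of 1.5-fold. TYMS, which makes thymidylate anew, had 2402 and 3353 and was equal after normalization (-0.003). RRM2, RRM1, TK1 and TYMS were each read by 1 probe.

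**Figure D4:**
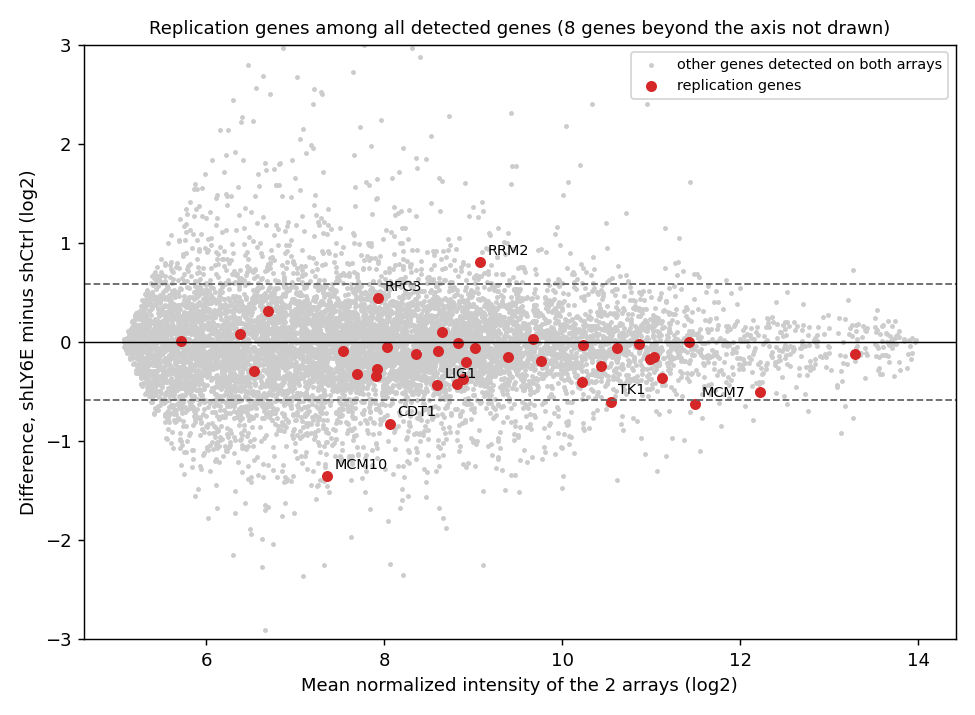
Difference, shLY6E minus shCtrl (log2), against the mean normalized intensity of the 2 arrays (log2) for genes detected on both arrays, replication genes in red; 8 genes beyond the axis are not drawn. The red points lie mostly between the dashed 1.5-fold lines and below 0, with MCM10 at -1.35 and RRM2 at 0.81 at the ends.

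Further genes of the same processes, 79 in all and 72 of them detected, had a median of -0.10. Below 0 were 45, at least 1.5-fold lower 6 and higher 3, where the background was 54.4%, 9.54% and 6.45%. Off chromosome 10, 4 of 69 were at least 1.5-fold lower, where the background was 7.55%. The 15 further licensing and origin factors had a median of -0.11. In this list MCMBP, which binds MCM proteins, was at least 1.91-fold lower and lies on chromosome 10, TICRR, a firing factor, differed by -0.64, and the helicase gene RECQL4 by -0.54. The 14 further polymerase and fork factors had a median of -0.26, with 12 below 0. DNA2, a flap nuclease on chromosome 10, gave -0.94, the RNase H2 subunit gene RNASEH2A -0.63 and the alternative clamp loader gene CHTF18 -0.57.

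The 8 genes of chromatin replication had a median of -0.41, led by the histone chaperone RBBP4 (-0.59, other probe 0.04), HELLS on chromosome 10 (-0.57) and the chaperone gene ASF1B (-0.53). The 12 further S-phase regulators had a median of 0.06, from E2F8 at -0.38 through CDK2 at -0.32 (other probe 0.27) to CDC25A, the phosphatase that activates CDK2, at 0.35. None of these 12 reached 1.5-fold.

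Further nucleotide supply genes (23 detected) had a median of 0.05. At least 1.5-fold higher were 3 and lower 1, where the background was 6.45% and 9.54%. The 3 higher genes were dim, where the lowest detected intensity was 106 in shLY6E and 129 in shCtrl. SAMHD1, which breaks down dNTPs, passed detection on the shLY6E array alone, at 140 against 122, and was at least 2.24-fold higher. RRM2B, the p53-inducible partner of RRM1, had 198 and 204 and was 1.56-fold higher (0.64), and DTYMK, thymidylate kinase, had 131 and 139 (0.62). The 8 purine synthesis genes of this list, grouped after their values were seen, lay between -0.22 (GART, other probe 0.57) and 0.18.

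Mitosis genes, listed for comparison, had a lower median than the replication genes. Of 28 detected, 28 were below 0 by their brightest probe, where 54.4% of all detected genes were, and their median was -0.41. Other probes of some of these genes lay above 0, the highest at 0.24, and those of others below 0. At least 1.5-fold lower were 7, where the background was 9.54%, and off chromosome 10 4 of 25, where it was 7.55%. KIF11 (-1.42) and MKI67 (-1.23) lie on chromosome 10, and KIF20A (-0.79) does not. Off chromosome 10 the median was -0.33 for 25 mitosis genes and -0.14 for 38 replication genes. This difference between lists was not tested, since 1 array per group gives no replicate error.

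**Figure D5:**
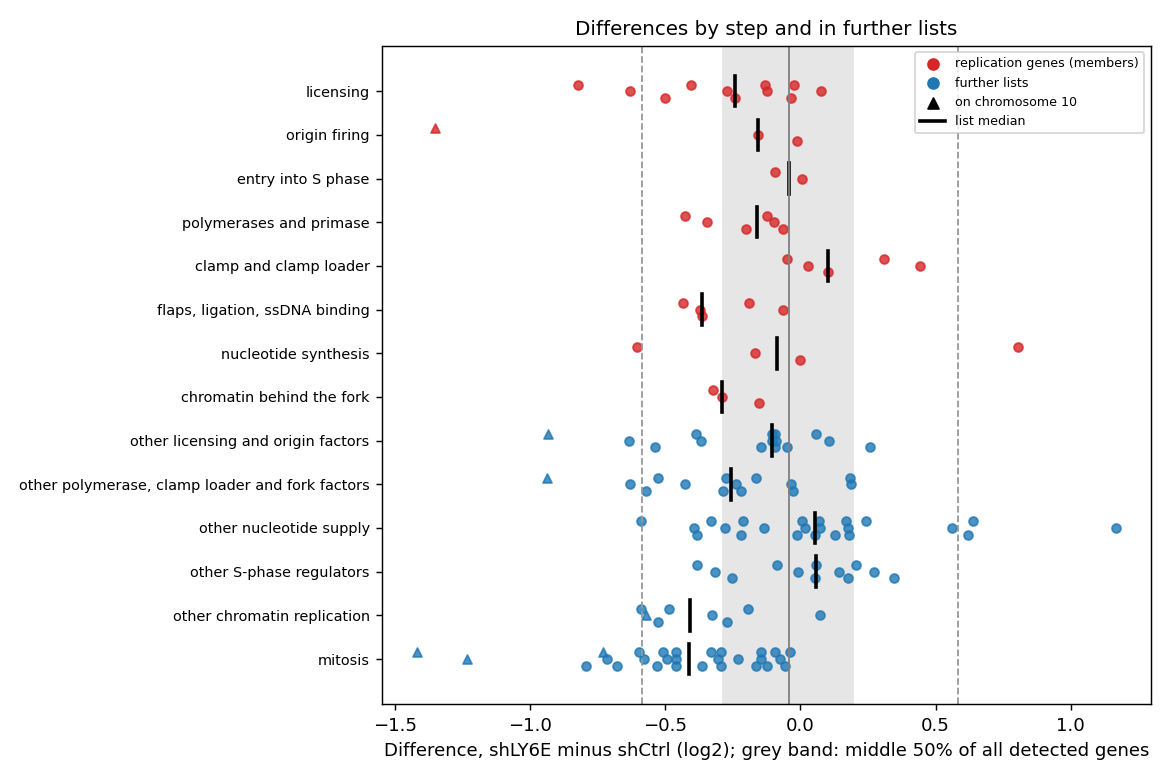
Difference, shLY6E minus shCtrl (log2), of each detected gene, by step for the replication genes (red) and in the further lists (blue); triangles are genes on chromosome 10, black bars list medians, dashed lines 1.5-fold, and the grey band the middle 50% of all detected genes, from -0.29 to 0.19. Flap processing (median -0.36), other chromatin replication (-0.41) and mitosis (-0.41) have medians left of the band, and chromatin behind the fork (-0.29) lies at its edge.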

How the data were processed

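The unnormalized table deposited by the authors gave a linear intensity and a detection p-value per probe and array, per the file headers. Both p-value columns carry the same name. Each was taken for the array in the column before it, and over 47321 probes it never went up as that array's intensity went up (Spearman's rho -0.984 and -0.987, against -0.83 and -0.835 for the other array). Per the labels' protocols, biotin-labelled cRNA came from Trizol-extracted, DNase-treated total RNA. A second deposited table held the authors' processed intensity, linear, centred at 6.14 on both arrays; the sources used here do not give its method or the scanner software. Intensities were background-corrected with normexp through the detection p-values (offset 16), quantile-normalized and log2-transformed (limma 3.58.1, R 4.3.3; later steps Python 3.11.15, pandas 2.3.3), and the steps were tested on simulated data. A gene was kept if a probe had a detection p-value under 0.01 on at least 1 array, and the brightest kept probe stood for it. Detection on 1 array gave a bound ("at least"), against the higher of the dim value and the lowest detected level. All 41 members are named, with up to 3 genes of each further list, and RFC1 and GART besides. Of 30113 probes with 1 symbol, 30074 matched RefSeq genes, which gave chromosomes. Alternatives were no background correction, 2 median scalings, offset 50, other detection rules, the mean over probes, measured differences for bounds, no chromosome 10, and the processed values. The members and lists were chosen with earlier results of these data known.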

Additional observations from a re-analysis of the deposited data

How the results depend on the processing

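Scaling both arrays to the median of all probes, most of them undetected, put the median of all genes at -0.42 and that of the members at -0.58 (-0.165 relative to all genes, against -0.11 with quantile normalization), with 19 members at least 1.5-fold lower, where 32.9% of all genes were, and 0 higher. Scaling to the median of the 14966 probes detected on both arrays was chosen after seeing the data. It put the members' median at -0.15 and MCM7 at -0.54. Of the members, 3 were at least 1.5-fold lower and 1 higher, where 8.2% of all genes were at least that much lower. In the other 9 alternatives the median ran from -0.17 to -0.12, with 3 to 5 members lower and 1 higher. The share of all genes that were lower moved too. It ran from 3.4% without background correction, with 3 members lower, to 11.6% with measured differences for bounds, with 5 lower. MCM7 turned to 0.22 as the mean over probes. Besides the 2 median scalings, 27 of 39 members stayed below 0, 7 above, and CCNE1, MCM7, ORC6, PCNA and UHRF1 took both signs. Without background correction TK1, at -0.57, was no longer 1.5-fold lower and MCM10, at -0.89, no longer 2-fold. The cause of these differences was not tested. Background limits what dim probes can show: the median detected probe was at 2.18 times background on the shLY6E array and at 2.52 times on the shCtrl array. No paired analysis was possible because shLY6E and shCtrl were measured once each.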
